A study of Homo sapiens with 5 samples.

Results

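A set of 10 genes of the feedback and output arm of the MAP kinase pathway was examined for binding of PHF8, an enzyme that removes methyl groups from histones. They were chosen by name: the phosphatases DUSP4, DUSP5 and DUSP6, the Sprouty genes SPRY1, SPRY2 and SPRY4, the Spred genes SPRED1 and SPRED2, and the ETS factors ETV4 and ETV5, 10 of 20162 protein-coding genes on the nuclear chromosomes. PHF8 chromatin immunoprecipitation and sequencing (ChIP-seq) was carried out on the human melanoma cell line SKMEL-147 in 3 replicates labelled A, B1 and B2, beside 2 input libraries labelled A and B. The study asked which genes PHF8 binds in these cells. All ChIP samples are of the same group. The series describes a PHF8 loss-of-function model made with guide RNAs, and the names of the deposited lists carry the letters scr, but the sample labels name no guide, treatment or time, so whether these cells carried a guide is not known here. Nothing says that the replicates came from separate cultures, so their spread may be technical. The input libraries were not analysed here on their own and enter only through the enrichment of each peak.

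ERK, the last kinase of the RAS, RAF and MEK cascade, switches on genes that in turn restrain it. DUSP proteins remove the activating phosphates from MAP kinases, Sprouty proteins dampen receptor signalling to RAS and RAF, and Spred proteins bring the RAS inhibitor neurofibromin to the membrane. ETV4 and ETV5 are transcription factors of the PEA3 group of ETS proteins that act downstream of ERK, and expression of these genes is widely read as a measure of pathway activity in melanoma, where BRAF or NRAS is often mutated.

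A gene was called bound when a peak overlapped the 1 kb on either side of any of its transcription start sites (TSSs) in all 3 replicates. Several of the genes had both a bound and an unbound TSS. Their upstream sequences are shown because they differ in CpG content, a feature on which bound and unbound TSSs of these genes separated below. In SPRY2 the bound and the unbound TSS lay within 2 kb of each other, and those shown for SPRED2 and ETV5 lay farther apart. For SPRY2, SPRED2 and ETV5 the 121 bases just upstream of a bound TSS (the outermost bound TSS in CpG-island-like sequence) and of the unbound TSS farthest from it are given, 5′ to 3′ along the gene, from GRCh37 (hg19), with each CpG in capitals. All 3 genes lie on the minus strand. The windows are chr13:80915262-80915382 and chr13:80913795-80913915 for SPRY2, chr2:65659772-65659892 and chr2:65561908-65562028 for SPRED2, and chr3:185826879-185826999 and chr3:185782350-185782470 for ETV5.
SPRY2 bound: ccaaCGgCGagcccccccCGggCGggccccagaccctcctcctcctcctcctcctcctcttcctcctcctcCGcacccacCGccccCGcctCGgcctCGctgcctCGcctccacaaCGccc
SPRY2 unbound: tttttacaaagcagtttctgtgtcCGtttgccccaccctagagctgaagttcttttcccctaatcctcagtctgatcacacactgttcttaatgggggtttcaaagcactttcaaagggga
SPRED2 bound: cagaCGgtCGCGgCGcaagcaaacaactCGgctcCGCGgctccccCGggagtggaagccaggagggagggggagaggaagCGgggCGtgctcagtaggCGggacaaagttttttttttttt
SPRED2 unbound: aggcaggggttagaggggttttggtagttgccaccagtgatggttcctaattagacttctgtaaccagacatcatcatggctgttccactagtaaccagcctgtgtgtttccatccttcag
ETV5 bound: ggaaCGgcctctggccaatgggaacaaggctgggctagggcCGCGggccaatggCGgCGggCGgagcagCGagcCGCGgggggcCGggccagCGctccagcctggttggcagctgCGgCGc
ETV5 unbound: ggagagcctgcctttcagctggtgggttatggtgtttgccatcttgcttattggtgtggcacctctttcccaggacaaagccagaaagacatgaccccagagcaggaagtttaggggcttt
The bound windows held 11 CpGs in SPRY2, 11 in SPRED2 and 13 in ETV5. The unbound windows held 1, 0 and 0. These bound TSSs were picked from CpG-island-like sequence, and other bound windows held fewer CpGs, with 6 before the outermost TSS of ETV5, 3 before that of SPRY4 and 2 before an inner TSS of SPRY1, the gene with the lowest fold enrichment of the set. The latter window, on the plus strand at chr4:124320544-124320664, is shown as the exception. No peak covered it, as the last promoter peak of SPRY1 ended at 124319928, 124319732 and 124319924 in A, B1 and B2. Its TSS counted as bound because a peak came within 1 kb of it. The ETV5 window with 6 CpGs was likewise not covered by a peak.
SPRY1 bound: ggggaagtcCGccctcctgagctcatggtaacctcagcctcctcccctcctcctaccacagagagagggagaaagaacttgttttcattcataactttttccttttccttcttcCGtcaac
An unbound TSS of SPRY1 had 4 CpGs in the window before it.

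SPRED1 had the highest fold enrichment of the set in replicates A and B1, and ETV5 had the highest in B2. The sequence at the SPRED1 summit, on the plus strand at chr15:38544586-38544706, held 14 CpGs in the same length, again in capitals.
SPRED1 summit: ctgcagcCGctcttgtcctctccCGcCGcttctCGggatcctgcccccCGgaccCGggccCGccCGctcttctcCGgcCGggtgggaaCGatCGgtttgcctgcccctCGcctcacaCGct
This window is intergenic.

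The 3 lists held between 20120 and 21506 peaks. The fold enrichment at a summit is the ratio of ChIP fragments to the local background after 1 is added to each. Its median was 18.9, 11.8 and 11.8 in A, B1 and B2, so that values are comparable within a list and not between lists. Each summit rested on a countable number of fragments, with a median of 54, 39 and 40 in A, B1 and B2, recovered from the deposited values. Intervals on these fragments cover counting error only, and whether amplification duplicates were removed is not given in the sources used here. To compare genes across lists, each gene was ranked by its strongest promoter peak within a replicate among all 16541 bound genes, coding and noncoding, and given as a percentile.

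All 10 genes were bound in all 3 replicates. Of all protein-coding genes 60.2% were bound (12139 of 20162), and of those with a CpG-island-like TSS, a class to which all 10 belong, 79.5% were bound. The members differed from one another in the height and extent of the signal. SPRED1 and ETV5 stood highest and SPRY1 lowest, and 8 of 10 genes lay below the 50th percentile. The median over the 10 genes of the mean percentile was 34.8, against 53.0 over all bound protein-coding genes.

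Among the phosphatases, DUSP4, which acts on ERK and other MAP kinases in the nucleus (ENSG00000120875, chromosome 8, 29190581 to 29208201, minus strand), had a strongest promoter peak with a fold enrichment of 24.9, 15.3 and 12.5 in A, B1 and B2. These peaks rested on 63, 44 and 37 fragments and ranked at percentile 31.6 ± 4.72 (SD, n = 3). DUSP4 carried 4, 5 and 5 promoter peaks in A, B1 and B2, the most of the 10 genes in B1 and B2 and as many as SPRY4 in A. Summits lay on both sides of the main TSS, at 423 bp upstream and 134 bp downstream (medians over replicates), with a fold enrichment of 24.9, 13.3 and 12.5 at the former and 24.5, 15.3 and 11.2 at the latter. Neither side was the stronger in every replicate. A second TSS in the first part of the gene also had peaks within 1 kb in all 3 replicates, although its summits shifted from list to list.

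DUSP5, a nuclear phosphatase selective for ERK (ENSG00000138166, chromosome 10, 112257665 to 112271291, plus strand), had a fold enrichment of 27.3, 14.7 and 17.7 in A, B1 and B2, resting on 72, 46 and 58 fragments. Its percentile was 40.3 ± 8.12 (SD, n = 3). The summit sat in intergenic sequence 320, 304 and 326 bp upstream of the TSS, a range of 22 bp over the 3 replicates. A weaker summit inside the 5′ UTR, at 133 bp downstream, was called as its own peak in B1 and B2, while in A 1 peak of 931 bp spanned both places. The second TSS of DUSP5, inside the gene, had no peak within 1 kb in any replicate.

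DUSP6, the cytoplasmic ERK phosphatase (ENSG00000139318, chromosome 12, 89741012 to 89746278, minus strand), had a fold enrichment of 19.6, 13.9 and 12.5 in A, B1 and B2, from 54, 42 and 39 fragments, at percentile 26.0 ± 5.12 (SD, n = 3). In the other 9 genes the strongest summit lay within 500 bp of a TSS in each replicate. That of DUSP6 lay 1669, 1884 and 1890 bp upstream, inside a divergent noncoding gene (ENSG00000286608), and only the edge of a peak 1261 to 1387 bp wide reached the promoter window. The peaks at the TSS itself were weaker, with a fold enrichment of 11.3, 5.91 and 8.74 in A, B1 and B2 at a median of 60 bp downstream, and 7.97, 8.47 and 6.04 at a median of 388 bp upstream. With windows of 500 bp the percentile of DUSP6 was 10.1, and with the summit required inside the window, a setting added after the data were seen, it was 10.4.

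SPRY1, an inhibitor of receptor tyrosine kinase signalling (ENSG00000164056, chromosome 4, 124317950 to 124324915, plus strand), had the weakest promoter peaks of the set in all 3 replicates. Its fold enrichment was 7.79, 5.35 and 5.59 in A, B1 and B2, and its percentile was 2.86 ± 0.573 (SD, n = 3). The summits held 19, 18 and 16 fragments, with 95% exact Poisson intervals of 11.4 to 29.7, 10.7 to 28.4 and 9.15 to 26.0. SPRY1 was also the only member with no summit position called in all 3 replicates, as each of its 4 positions was found in 2. In A and B2 the strongest summit was 30 and 20 bp downstream of the CpG-rich TSS at 124319340. In B1 it was 117 bp downstream of the TSS at 124317966, one of the outer TSSs. With a fold enrichment above 10 required, SPRY1 dropped out, leaving 9 of 10 members against 49.6% of protein-coding genes.

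SPRY2 (ENSG00000136158, chromosome 13, 80910111 to 80915261, minus strand), a close relative induced by growth factors, had a fold enrichment of 17.9, 14.0 and 13.5 in A, B1 and B2. These rested on 45, 40 and 40 fragments and stood at percentile 26.3 ± 8.20 (SD, n = 3). The strongest summit lay in the 5′ UTR at 127, 175 and 186 bp downstream of the TSS. A second one, called separately in A and B2, lay a median of 434 bp upstream, and in B1 a single peak of 964 bp ran over both positions. A further peak stood clear of all TSS windows of SPRY2 in intergenic sequence, 1726, 1729 and 1705 bp upstream, with a fold enrichment of 13.2, 11.3 and 8.87 in A, B1 and B2.

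SPRY4 (ENSG00000187678, chromosome 5, 141689992 to 141706020, minus strand), another ERK-induced member of the family, had a fold enrichment of 23.1, 10.4 and 10.6 in A, B1 and B2, from 59, 36 and 33 fragments, at percentile 21.7 ± 5.23 (SD, n = 3). Its main signal was double, with summits a median of 363 bp upstream and 113 bp downstream of the TSS. The downstream summit was the higher in A (23.1 against 13.3), and the upstream summit was the higher in B1 (10.4 against 9.57) and B2 (10.6 against 8.46). Far outside the promoter, 30870 bp upstream and inside the antisense gene SPRY4-AS1, another peak was called in every replicate with a fold enrichment of 26.6, 12.6 and 13.1, which was above that of the SPRY4 promoter peak in the same list.

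SPRED1 (ENSG00000166068, chromosome 15, 38545037 to 38649450, plus strand), which recruits neurofibromin to RAS, had the highest mean percentile of the 10, above ETV5 by less than the spread between replicates. The fold enrichment was 46.4, 22.5 and 18.5 in A, B1 and B2, and the summits held 130 fragments (95% exact Poisson interval 108.6 to 154.4), 77 (60.8 to 96.2) and 66 (51.0 to 84.0). The percentile was 81.7, 65.2 and 53.1 in A, B1 and B2, above the 50th in each, with a mean of 66.7 ± 14.4 (SD, n = 3). The summit, whose sequence is shown above, was intergenic and 386, 391 and 415 bp upstream of the first TSS. The peak was broad, at 1703 bp, 1184 bp and 1589 bp in A, B1 and B2.

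SPRED2 (ENSG00000198369, chromosome 2, 65537985 to 65659771, minus strand), its paralog with the same mode of action, had a fold enrichment of 29.2, 15.3 and 16.8 in A, B1 and B2, from 75, 44 and 50 fragments, at percentile 41.3 ± 4.63 (SD, n = 3). The summit lay in the 5′ UTR, 212, 174 and 188 bp downstream of the nearest TSS. A weak second summit in an intron, a median of 1551 bp downstream, recurred with a fold enrichment of 4.14, 7.50 and 5.91. Of the 8 annotated TSSs of SPRED2, only the 2 at the outer end were bound, and the other 6 deeper in the gene had no peak within 1 kb.

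ETV4 (ENSG00000175832, chromosome 17, 41605212 to 41656988, minus strand) had a fold enrichment of 24.9, 19.0 and 13.6 in A, B1 and B2, from 74, 58 and 43 fragments, at percentile 38.0 ± 11.2 (SD, n = 3). The signal had 1 recurrent summit, 85, 141 and 88 bp downstream of a TSS in a cluster of 9 TSSs between 41622770 and 41623708. The 5′ end of the gene record, at 41656988, was bound in no replicate, so that with 1 TSS per gene ETV4 was lost and 9 of 10 members were bound against 54.0% of protein-coding genes.

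ETV5 (ENSG00000244405, chromosome 3, 185764103 to 185828107, minus strand) had a fold enrichment of 46.0, 20.2 and 19.3 in A, B1 and B2, and its summits held the most fragments of the set, 140 (95% exact Poisson interval 117.8 to 165.2), 88 (70.6 to 108.4) and 87 (69.7 to 107.3). Its percentile was 80.8, 55.9 and 56.4 in A, B1 and B2, with a mean of 64.4 ± 14.3 (SD, n = 3). The summit lay 23, 11 and 26 bp upstream of a TSS, a range of 15 bp. A second summit in an intron, a median of 520 bp upstream, had a fold enrichment of 18.8, 13.6 and 9.09. The strongest peak did not reach the window of the outermost TSS of the gene record, and ranked with that TSS alone ETV5 stood at percentile 20.8. By fragments in place of fold enrichment it ranked at 80.3, above SPRED1 at 67.1. Its local background was 2.07, 3.40 and 3.55 in A, B1 and B2, above the genome-wide background of 1.57, 1.93 and 2.04.

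**Figure D1:**
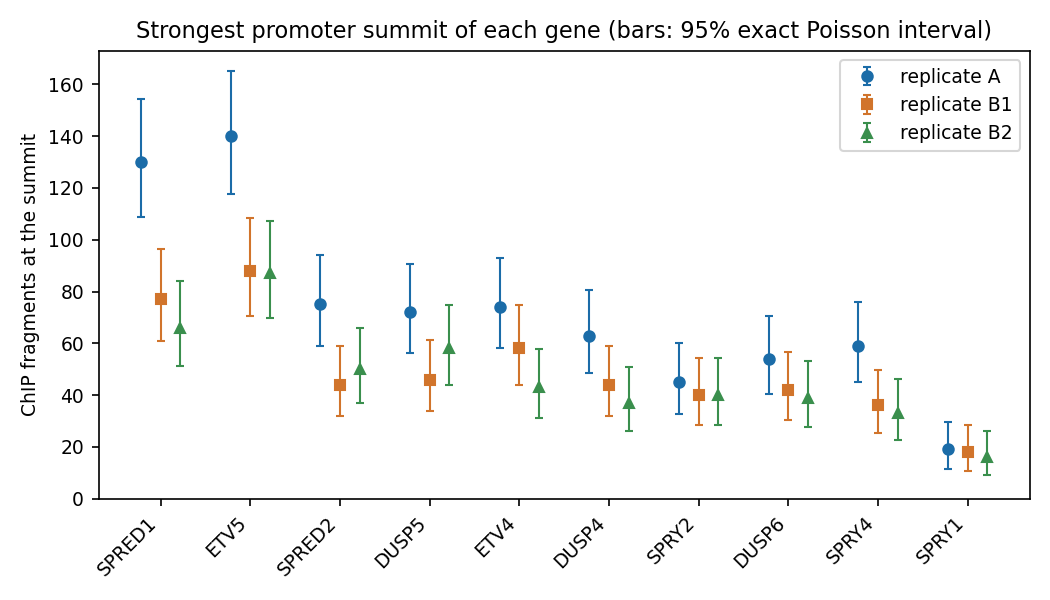
ChIP fragments at the strongest promoter summit of each gene (y axis, fragments) in replicates A, B1 and B2, with 95% exact Poisson intervals as bars and genes ordered by mean percentile. SPRED1 and ETV5 lie highest in every replicate, and SPRY1 lies lowest with 19, 18 and 16 fragments.

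In the order of mean percentile, the genes ran SPRED1, ETV5, SPRED2, DUSP5, ETV4, DUSP4, SPRY2, DUSP6, SPRY4 and SPRY1. Of the 9 steps between neighbours in this order, 2 were larger than the SD of the difference over replicates and went the same way in 3 of 3 replicates. ETV5 stood 23.1 ± 14.5 percentile points above SPRED2, and SPRY4 stood 18.8 ± 5.41 above SPRY1 (SD, n = 3). The other neighbours did not differ beyond their spread, so the 7 genes from SPRED2 to SPRY4 have no fixed order step by step. Replicate A gave SPRED1 and ETV5 a higher rank than B1 and B2 did, and those share a letter in their labels.

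**Figure D2:**
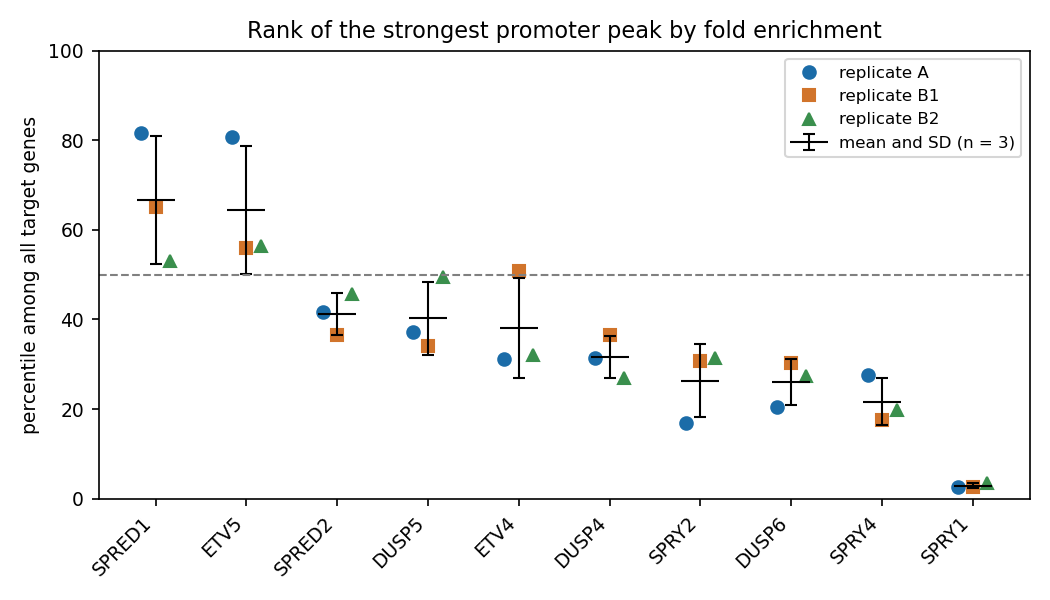
Percentile of the strongest promoter peak by fold enrichment among all bound genes (y axis) for each gene and replicate, with the mean and SD of the 3 replicates and a dashed line at the 50th percentile. SPRED1 and ETV5 lie above the line in all 3 replicates, and SPRY1 lies between 2.52 and 3.53.

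Paralogs were compared within replicates by the difference in log2 fold enrichment of their strongest promoter peaks, in 8 pairs. Signs were flipped over the 3 replicates in a two-sided exact permutation test, with Benjamini-Hochberg adjustment over the pairs. With 3 replicates this test cannot give a p below 0.25, so none of the pairs could pass. SPRY1 was lower than SPRY2 by a log2 difference of -1.28 ± 0.096 and lower than SPRY4 by -1.15 ± 0.36, each in 3 of 3 replicates (SD, n = 3, exact p = 0.25, adjusted p = 0.4 for both). Both differences were larger than the spread between replicates. SPRED1 was higher than SPRED2 by 0.46 ± 0.28 and ETV4 lower than ETV5 by -0.49 ± 0.40, again in 3 of 3 (exact p = 0.25, adjusted p = 0.4 for both). The latter was -0.30 without replicate A, and -0.85 by fragments in place of fold enrichment. DUSP5 exceeded DUSP6 by 0.35 ± 0.24 in 3 of 3 replicates (exact p = 0.25, adjusted p = 0.4), and by 1.03 with windows of 500 bp, which leave out the distal DUSP6 peak.

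The remaining 3 pairs changed order between replicates. DUSP4 minus DUSP5 was -0.19 ± 0.29 and DUSP4 minus DUSP6 was 0.16 ± 0.18 (exact p = 0.5, adjusted p = 0.571 for both). The latter became 0.84 with windows of 500 bp and 0.07 without replicate A, and DUSP4 minus DUSP5 ran from -0.32 without replicate B1 to -0.03 without replicate B2. SPRY2 minus SPRY4 was 0.13 ± 0.44 (exact p = 0.75, adjusted p = 0.75), with SPRY4 the higher in A and SPRY2 the higher in B1 and B2. It was 0.38 without replicate A, -0.01 without B1 and 0.03 without B2.

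Although most of these promoters ranked low by the height of their strongest peak, the peaks were many and covered long stretches. The median member had 2 promoter peaks in A, 2.5 in B1 and 2 in B2, against 1 for bound protein-coding genes in each list. In all, 6 of the 10 genes, DUSP4, DUSP6, SPRY1, SPRY4, SPRED2 and ETV5, had at least 2 in every replicate, against 31.9% of bound protein-coding genes. The count does not require the same peaks to recur, weak peaks enter it, and SPRY1 had no summit position shared by all 3 replicates. The bases covered by promoter peaks had a median over members of 1768 bp, 1670 bp and 1469 bp in A, B1 and B2, against 1020, 964 and 929 bp, and 8 of 10 members were above the median of 971 bp for the mean over replicates. SPRY1, with 735 bp, and SPRY2, with 889 bp, were below it. Each peak counted with its full width, also where it ran outside the promoter window. For DUSP6 the distal peak gave 1361, 1387 and 1261 bp of the 2035, 1997 and 1934 bp in A, B1 and B2. The members had a median of 5.5 TSSs each, fewer than the median of 7 for bound protein-coding genes.

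The height of the strongest peak had a median over members of 24.9, 15.0 and 13.5 in A, B1 and B2 by fold enrichment, against 33.4, 19.4 and 18.4 over bound protein-coding genes. In fragments the medians were 67.5, 44 and 41.5 against 97, 64 and 63. These medians are descriptions, since the list was chosen by name and no test was run over it.

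Summits within 3000 bp of a TSS were joined over replicates where they lay within 150 bp of each other. This gave 47 positions for the 10 genes, of which 19 recurred in all 3 replicates, with a median range between replicates of 49 bp. Among the 19, 12 lay upstream of the nearest TSS and 7 downstream. DUSP4, DUSP6 and SPRY4 each had a recurrent pair that straddled the TSS, with the upstream summit between 363 and 423 bp before it and the downstream summit between 60 and 134 bp after it. SPRY2 and DUSP5 had the same arrangement in part, with 1 of the summits called in 2 replicates. SPRED1 (391 bp upstream), SPRED2 (188 bp downstream) and ETV4 (88 bp downstream) each had a single main summit close to the TSS.

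**Figure D3:**
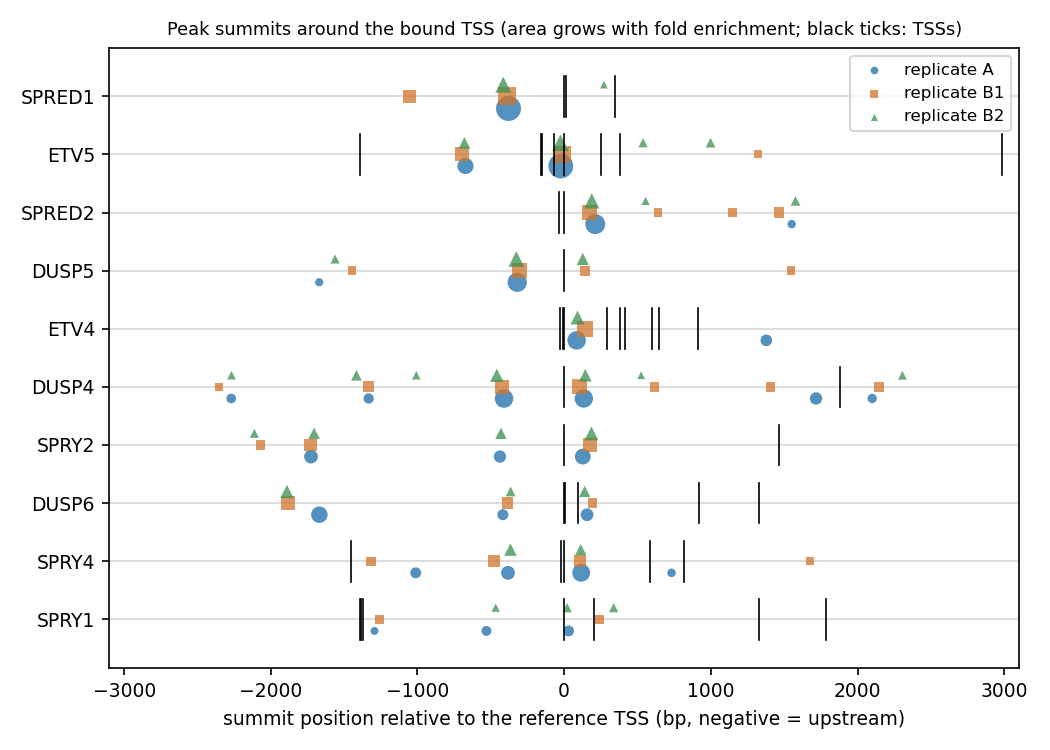
Positions of all peak summits within 3000 bp of a reference TSS of each gene (x axis, bp, negative is upstream), by replicate, with the area of a symbol growing with fold enrichment and black ticks at annotated TSSs. Pairs of summits on both sides of the TSS recur in DUSP4, DUSP6 and SPRY4, and the distal DUSP6 summits lie 1669 to 1890 bp upstream.

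At 5 of the 10 genes the strongest peak also overlapped the promoter window of a neighbour on the opposite strand, against 44.0% of bound protein-coding genes. These were DUSP4 with the noncoding gene ENSG00000285601 (TSSs 608 bp apart), DUSP5 with DUSP5-DT (1317 bp), DUSP6 with ENSG00000286608 (1297 bp), SPRY4 with SPRY4-AS1 (188 bp) and ETV4 with DHX8, which encodes an RNA helicase of the spliceosome (617 bp). Any annotated TSS of the neighbour counted, main or minor, and each distance is between the nearest TSSs of the pair. From these shared peaks alone, binding to one gene or the other cannot be told apart. DUSP6 also had the weaker, separate peaks at its own TSS given above.

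Peaks outside every TSS window, those of other genes included, but within 50 kb of a member were found in all 3 replicates at 4 genes. Besides those of SPRY2 and SPRY4 given above, a peak lay 22506 bp upstream of DUSP4 (29230571 to 29230952 in replicate A) with a fold enrichment of 20.6, 11.7 and 9.44 in A, B1 and B2. An intronic peak of DUSP5, 1522 bp before its second TSS, was weak at 5.32, 4.09 and 5.18. Whether any of these regions acts on the gene next to it was not tested.

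The 10 genes have 60 annotated TSSs, of which 40 had a peak within 1 kb in all 3 replicates. Sequence within 250 bp of a TSS was called CpG-island-like when its GC share was at least 0.5 and its observed over expected CpG ratio at least 0.6. Of the 35 island-like TSSs of the members 34 were bound in all 3 replicates, against 84.0% of such TSSs over protein-coding genes. The exception was the innermost TSS of DUSP6, at 89744948, with a peak in 2 replicates and a GC content of 50.1%. Of the other 25 TSSs 6 were bound, against 11.2% over protein-coding genes, and all 6 lay within 2 kb of an island-like TSS of the same gene, 4 of them in SPRY1 and 1 each in SPRY4 and ETV5. So did 2 TSSs with no peak in any replicate, in SPRY1 and SPRY2. TSSs of 1 gene often share a peak and are not independent.

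**Figure D4:**
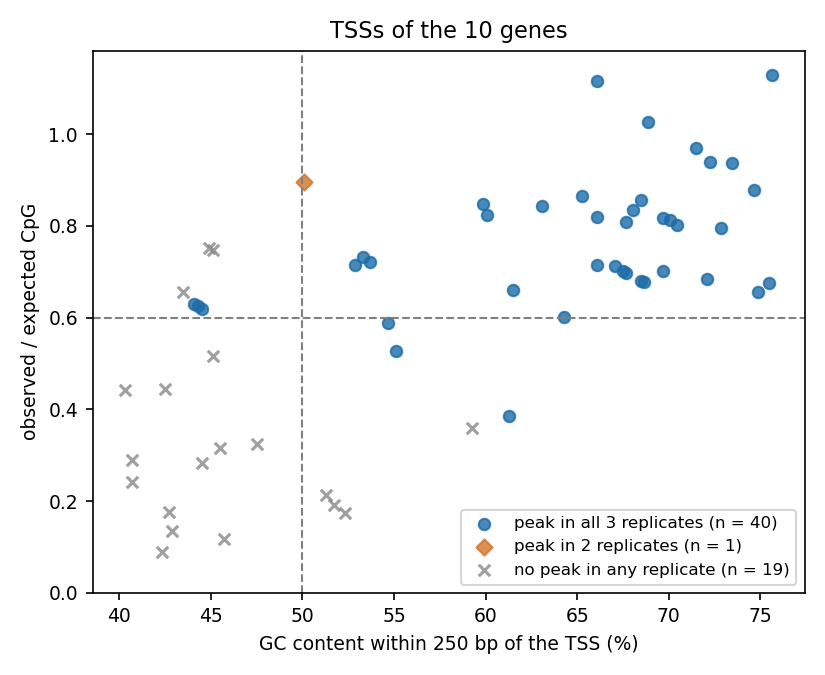
GC content (x axis, percent) and observed over expected CpG ratio (y axis) within 250 bp of each of the 60 TSSs, coloured by the number of replicates with a peak within 1 kb, with dashed lines at the limits for a CpG-island-like sequence. In the upper right field 34 of 35 TSSs were bound in all 3 replicates, and outside it 6 of 25.

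Around the strongest summit in replicate A (501 bp) the GC content ran from 64.7% in SPRY4 to 76.3% in SPRED1, with a median of 69.8% against 68.5% over bound protein-coding genes, and the median CpG ratio was 0.892 against 0.837. For DUSP6 this window lay at the distal summit, 1669 bp upstream of the TSS. At its recurrent summits 388 bp upstream and 60 bp downstream the GC content was 51.5% and 56.9%. SPRY1, the lowest in rank, had 68.9% GC and a CpG ratio of 1.03. The GC box GGGCGG, searched on both strands, was present in 9 of the 10 windows, all but SPRY4, and in 86.7% of those of bound protein-coding genes. The ETS motif CCGGAAGT and the cyclic AMP response element TGACGTCA were in 0 of 10, against 9.49% and 3.11%. The AP-1 motif TGANTCA was found in ETV5 (4.88% of all), the E-box CACGTG in SPRY1 (11.8%) and TATAAA at the distal summit of DUSP6 (4.28%). With 10 windows these counts are a description of the sequences and say nothing of the factors.

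Other genes of the pathway were read from 4 lists, of which 40 of 42 genes were bound, beside the 60.2% of all protein-coding genes. The 2 exceptions were phosphatases, DUSP2, an inducible enzyme of immune cells, and DUSP9, which had no promoter peak in any replicate. Of the phosphatases that were bound, DUSP1, an immediate early gene, reached a fold enrichment of 39.3, 28.2 and 29.2 in A, B1 and B2, at percentile 79.6 ± 11.2 (SD, n = 3). This was above DUSP4, DUSP5 and DUSP6 in every replicate. DUSP8 (24.4 ± 8.72), DUSP7 (22.3 ± 1.73), DUSP16 (17.7 ± 9.42) and DUSP10 (14.1 ± 7.47) stood lower, and the median percentile of the 5 was 22.3.

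Among 8 further inhibitors of the pathway, all bound, the median percentile was 48.5, with 4 above the 50th. The list was not limited to feedback genes that ERK induces. The paralogs SPRY3 (34.4 ± 6.37) and SPRED3 (10.5 ± 0.385) stood low, as did IL17RD (32.7) and ERRFI1 (24.1). The 4 above the 50th were RASA2 (94.9), LZTR1 (93.9), RASA1 (87.0) and NF1. NF1, the gene of neurofibromin, with which Spred proteins act, stood at 62.6 ± 13.0 (SD, n = 3). Apart from the paralogs, these genes were named after their values were seen. The list of 12 ETS factors and immediate output genes also held CIC, which is neither. All 12 were bound, with a median percentile of 23.1. CIC, at 53.2, was the 1 gene above the 50th and was named after its value was seen. ETV1, the third PEA3 factor, stood at 15.2 ± 2.57, below ETV4 and ETV5 in each replicate.

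The 15 genes of the core cascade, from adaptors and RAS to ERK, were all bound with a median percentile of 69.6, and 11 were above the 50th. The range ran from 27.9 for BRAF to 98.7 for GRB2, an adaptor that links receptors to RAS, both named after their values were seen. With a fold enrichment above 10 required in every replicate, all 15 core genes stayed bound. So did 2 of 7 phosphatases, 7 of 8 further inhibitors and 5 of 12 genes of the output list, CIC among them. Of all protein-coding genes 49.6% were bound at this cutoff. These counts were added after the data were seen. No test of the difference between the lists was run.

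**Figure D5:**
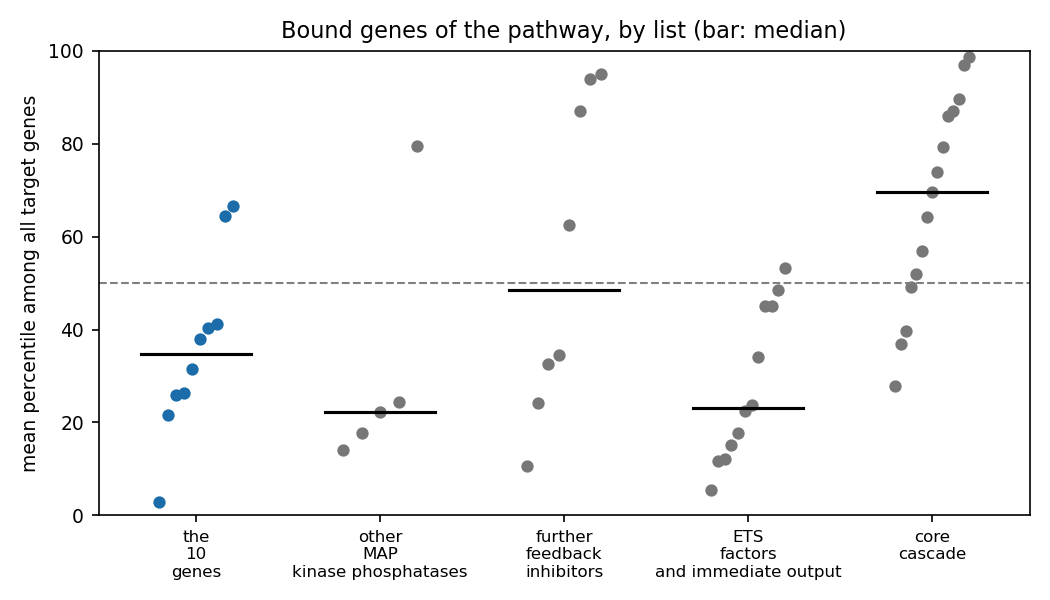
Mean percentile over 3 replicates of the strongest promoter peak among all bound genes (y axis) for the 10 genes and for the bound genes of 4 other lists of the pathway, with a bar at each median. The medians are 34.8 for the 10 genes, 22.3, 48.5 and 23.1 for the phosphatases, the further inhibitors and the output list, and 69.6 for the core cascade.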

How the data were processed

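PHF8 ChIP-seq peak lists of 3 replicates were used. Per the labels and the methods of the study, the authors aligned reads to hg19 (GRCh37) with Bowtie2 and called narrow peaks with MACS for each replicate against input, with cutoffs of 1.5 on fold enrichment and 0.05 on the q-value (whose printed sign was read as below). The processing notes of the submitters also list bcl2fastq and Picard. Versions and the handling of duplicate reads are not given in the sources used here. Fold enrichment, as deposited, is the ratio of ChIP fragments to local background at a summit, with 1 added to each. The deposited p-value and q-value are −log10 values. The deposited score is a scaled q-value and was not used. Summits are deposited as an offset from the start of a peak.

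TSSs were 5′ ends of all transcripts of GENCODE release 44 lifted to GRCh37, 221291 gene and TSS pairs on 64440 genes, without mitochondrial genes and the second copy of the pseudoautosomal genes. Fragments per summit were obtained by finding the count and background for which a Poisson model returns the deposited p-value and ratio together, which gave whole numbers for 100% of peaks within 0.001 on the −log10 scale. Fragments carry 95% exact Poisson intervals. The scripts were tested on simulated data. Python 3.11.15, pandas 2.3.3, numpy 2.4.6, scipy 1.17.1 and pysam 0.24.0 were used.

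The genes and lists were chosen with earlier results of these data known. All 10 genes, their family paralogs, unbound genes of the lists and neighbours that share a peak are named by rule. The distance of 150 bp that joins summits was set after the data were seen. Alternatives were other windows (500 bp, 2 kb), 1 TSS per gene, protein-coding transcripts, stricter cutoffs, lists of equal size, at least 2 replicates, fragments in place of fold enrichment and leaving out each replicate. Percentiles and differences with the summit inside the window, and the lists of other genes under these alternatives, were added after the data were seen.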

Additional observations from a re-analysis of the deposited data

How the results depend on the processing

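The number of bound members was 9 or 10 and the share of bound protein-coding genes 49.6% to 61.3% under every alternative tried. The median percentile over the members, 34.8, was 26.2 with 1 TSS per gene, where ETV4 is not bound and 9 members remain, so ETV4 minus ETV5 has no value there. SPRY2 minus SPRY4 (log2 0.13) was -0.01 without replicate B1, and ran from -0.0143 to 0.3845 over the replicates left out. The cause of the turn was not tested. No other difference between paralogs turned its direction under the alternatives run. Fragment counts limit the weak peaks, as SPRY1 rests on 16 to 19 fragments.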
